A study of Mus musculus with 22 samples.

Results

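The genes described here act in the methionine cycle, in transsulfuration and in the folate-linked supply of carbon units: Mat1a, Gnmt, Ahcy, Bhmt, Bhmt2, Cbs, Cth, Shmt1, Shmt2 and Mthfd1. They are a part of the genes of these pathways. They were chosen by name and function, as the array features whose annotated symbol is one of these. All 10 were found, each with 1 feature, among 19505 named genes and 22206 features. The livers came from male mice of 3 to 8 months that carry a knockout of adiponectin, a hormone of fat cells, in the whole body (allele Adipoqtm1Chan, C57BL/6J background). The mice ate standard chow freely and lived in cycles of 12 h of light and 12 h of darkness. Livers were collected every 4 h and named by zeitgeber time (ZT, hours after lights on). The light phase gave 4 livers at ZT2, 3 at ZT6 and 4 at ZT10. The dark phase gave 4 livers at ZT14, 3 at ZT18 and 4 at ZT22. Each liver had its own Clariom S array, named here by its time and letter (ZT2a). No wild-type liver was analysed here. Every comparison therefore sets times of day in knockout livers against each other, and the effect of losing adiponectin is not measured.

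The methionine cycle turns methionine into S-adenosylmethionine (SAM), the methyl donor of the cell, and returns it to homocysteine once the methyl group has been passed on. Homocysteine is then either methylated back to methionine, with a methyl group from betaine or from folate, or condensed with serine by the transsulfuration pathway, which leads to cysteine, glutathione, taurine and hydrogen sulfide. Liver carries out most of the methionine breakdown of the body, and Mat1a, Gnmt and Bhmt are genes typical of hepatocytes.

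Of the 10 genes, 6 were called for a 24 h rhythm, 3 with a fitted peak early in the light and 3 in the dark. Whether these form separate groups was not tested, and Bhmt and Cth had their highest time means at ZT22, in the dark. Cbs, Cth and Bhmt had fitted peaks between ZT0.427 and ZT3.33. Ahcy, Bhmt2 and Shmt1 had fitted peaks between ZT17.9 and ZT20.8. Mat1a, Gnmt, Shmt2 and Mthfd1 did not pass the test. The test fitted a cosine and sine with a period of 24 h to all 22 arrays (limma's moderated F test), with Benjamini-Hochberg adjustment over all features at a threshold of 0.05, and it called 7.62% of all features and 13.6% of the 11103 features above the median level. The fitted fold span from trough to peak had a median of 1.58 over the 10 genes and 1.24 over all features. Bulk liver RNA was measured, so a change in the number of cells of a type and a change in the RNA of each cell cannot be told apart.

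**Figure D1:**
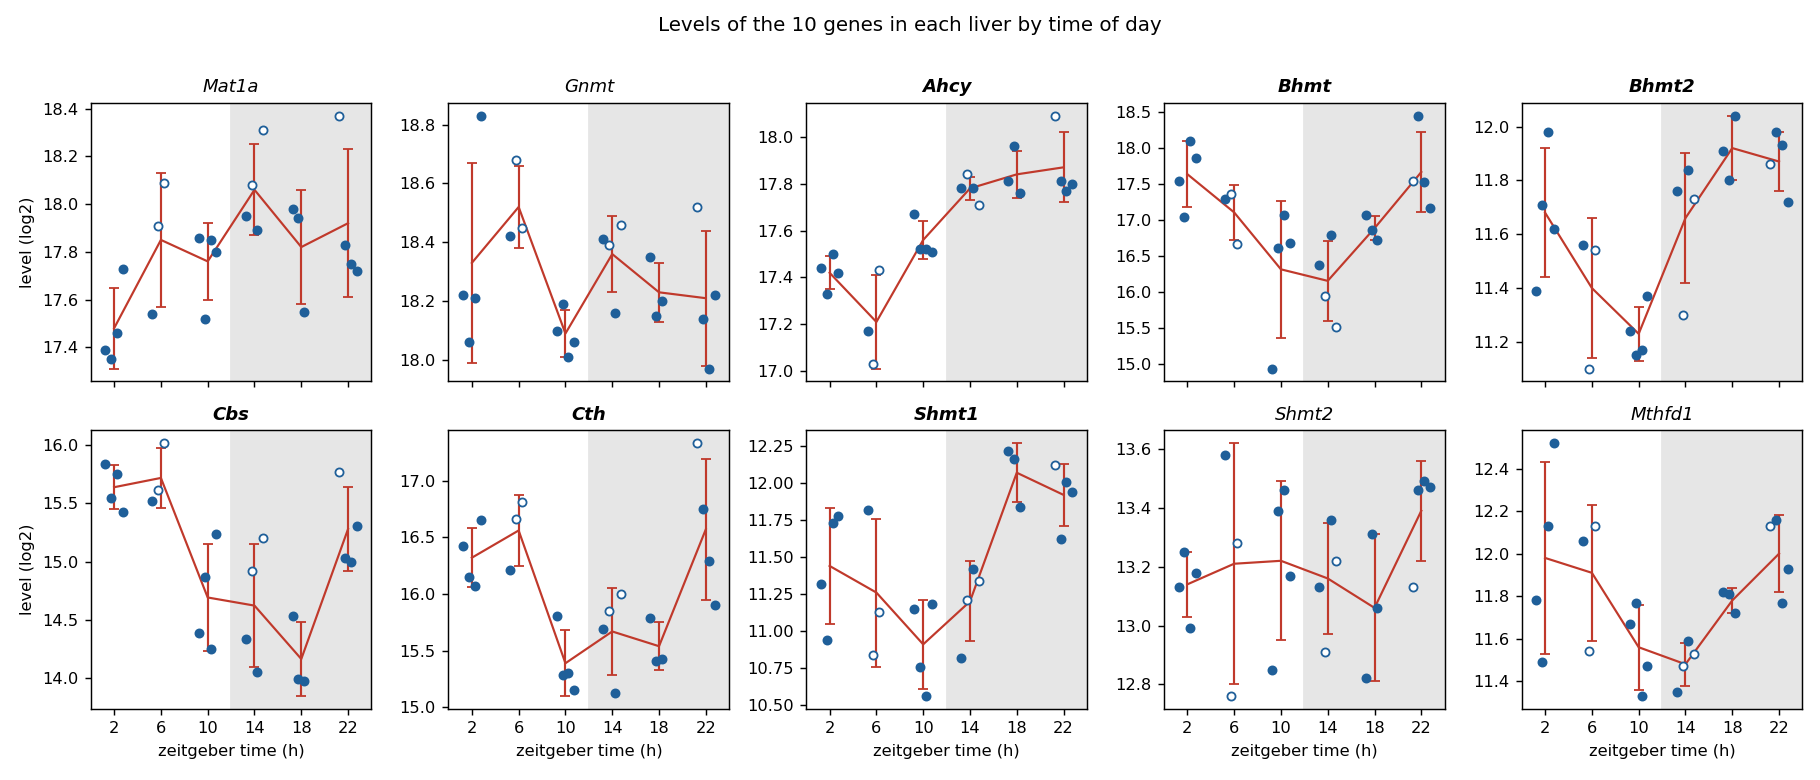
Log2 level of each of the 10 genes (vertical axes, 1 scale per gene) against zeitgeber time in hours, with 1 point per liver, red lines and bars for mean ± SD, and grey for darkness. Bold names mark the 6 genes called for a 24 h rhythm, and open points mark the 5 arrays with high Tff3. Cbs and Cth were high at ZT2 and ZT6 and low from ZT10 to ZT18, whereas Ahcy was higher in all 11 dark-phase livers than in all 11 light-phase livers.

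The arrays were alike in scale, with medians between 5.28 and 5.36 on the log2 scale and lower quartiles between 3.67 and 3.91. All 10 genes lay far above those quartiles, the lowest single value being 10.56 for Shmt1. Adipoq itself lay between 3.30 and 4.69 in all arrays, which checks the genotype little without wild-type arrays. The 6 hepatocyte markers lay between 17.32 and 19.87, while the means of the adipocyte markers Plin1, Lep and Retn were 3.56, 3.01 and 3.77 and those of 4 pancreatic acinar genes lay between 3.40 and 4.73. The adipocyte-associated Cidec, which steatotic hepatocytes also express, ranged from 4.81 to 9.90. Tff3, a secreted trefoil peptide, set 5 arrays apart: ZT6b and ZT6c had 10.35 and 11.60, ZT14b and ZT14d had 13.26 and 13.63, and ZT22a had 11.42, while the remaining 17 arrays lay between 2.31 and 4.73. Where leaving out these 5 arrays changed a call, both values are given.

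Cbs and Cth, the pair of transsulfuration enzymes, were high early in the light and low from ZT10 to ZT18. Cbs encodes cystathionine beta-synthase, which joins homocysteine and serine, and Cth encodes cystathionine gamma-lyase, which releases cysteine from the product. Cbs measured 15.84, 15.55, 15.75 and 15.43 at ZT2, 15.52, 15.62 and 16.02 at ZT6, 14.38, 14.87, 14.25 and 15.24 at ZT10, 14.33, 14.92, 14.05 and 15.20 at ZT14, 14.53, 13.99 and 13.97 at ZT18, and 15.77, 15.03, 15.00 and 15.31 at ZT22. All 7 livers of ZT2 and ZT6 lay above all 11 livers of ZT10, ZT14 and ZT18, and ZT22 lay between and overlapped both. The time means ran downward in the order ZT6, ZT2, ZT22, ZT10, ZT14 and ZT18, and each overlapped its neighbour in that order. The highest time mean, 15.72 ± 0.26 at ZT6 (SD, n = 3), was 2.94-fold the lowest, 14.16 ± 0.32 at ZT18 (SD, n = 3). The fitted rhythm of Cbs had an amplitude of 0.72 ± 0.12 (SE, log2), a peak at ZT3.33 ± 0.611 h and a 2.72-fold span (limma, adjusted p = 0.000498).

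Cth measured 16.42, 16.15, 16.07 and 16.65 at ZT2, 16.21, 16.66 and 16.81 at ZT6, 15.81, 15.29, 15.30 and 15.15 at ZT10, 15.69, 15.85, 15.13 and 16.00 at ZT14, 15.79, 15.41 and 15.43 at ZT18, and 17.33, 16.75, 16.29 and 15.90 at ZT22. As for Cbs, every liver of ZT2 and ZT6 exceeded every liver of ZT10, ZT14 and ZT18, but the 4 livers of ZT22 spread over more than a log2 unit. In the order of time means (ZT22, ZT6, ZT2, ZT14, ZT18, ZT10), ZT2 and ZT14 were the only neighbours without overlap. The ZT22 mean of 16.57 ± 0.62 was 2.27-fold the ZT10 mean of 15.39 ± 0.29 (SD, n = 4 each). The fitted peak of Cth was at ZT1.38 ± 0.866 h, with an amplitude of 0.57 ± 0.12 and a 2.19-fold span (adjusted p = 0.00827). Over the 22 arrays Cbs and Cth had the highest correlation among all pairs of these genes, r = 0.733, and r = 0.391 once each time's mean was removed, as a description of values from the same arrays.

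The promoter of Cbs is shown because its window held the only E-box, the element CACGTG bound by the clock proteins BMAL1 and CLOCK, among the promoters of these genes. RefSeq's promoter table (assembly GRCm38.p6) had an entry for 8 of the 10, each with 250 bases before and 50 bases after the gene start. The E-box, in capitals, begins 229 bases upstream of the start. The window lies at chr17:31637156-31637455 on the minus strand.
Cbs: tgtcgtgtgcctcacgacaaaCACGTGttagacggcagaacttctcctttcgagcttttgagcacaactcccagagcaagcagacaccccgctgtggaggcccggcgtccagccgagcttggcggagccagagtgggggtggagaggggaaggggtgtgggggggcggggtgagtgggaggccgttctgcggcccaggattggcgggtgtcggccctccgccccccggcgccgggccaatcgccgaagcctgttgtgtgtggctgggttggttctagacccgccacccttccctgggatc
The letters CACGTG were present in 7.15% of 32851 promoter windows and in 1 of the 8 windows of these genes. The D-box letters TTANNTAA were present in 6% of all windows and in 0 of the 8, and those of an ATF4 element, TGATGNAA, in 3.97% and in 0 of the 8. Both strands were searched, and a match is a match of letters, with no binding measured here.

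Bhmt and Bhmt2 encode methyltransferases that remake methionine, Bhmt with betaine as the methyl donor and Bhmt2 with S-methylmethionine. Of these neighbouring genes, Bhmt had its fitted peak near lights on and Bhmt2 late in the dark. Bhmt measured 17.55, 17.04, 18.10 and 17.86 at ZT2, 17.30, 17.36 and 16.67 at ZT6, 14.94, 16.61, 17.07 and 16.68 at ZT10, 16.38, 15.95, 16.80 and 15.52 at ZT14, 17.07, 16.87 and 16.73 at ZT18, and 17.54, 18.45, 17.53 and 17.17 at ZT22. Every liver of ZT14 lay below every liver of ZT2 and of ZT22, and ZT10 held the lowest value of all, in ZT10a, while ZT10c, at 17.07, was the 1 liver of that time to reach the range of ZT2. Neighbours in the order of time means (ZT22, ZT2, ZT6, ZT18, ZT10, ZT14) overlapped throughout. The ZT22 mean, 17.67 ± 0.55, was 2.85-fold the ZT14 mean, 16.16 ± 0.55 (SD, n = 4 each). The fitted rhythm had the widest span of the 10 genes, 3.12-fold, with an amplitude of 0.82 ± 0.14 and a peak at ZT0.427 ± 0.712 h (adjusted p = 0.000906).

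Bhmt2 measured 11.39, 11.71, 11.98 and 11.62 at ZT2, 11.56, 11.10 and 11.54 at ZT6, 11.24, 11.15, 11.17 and 11.37 at ZT10, 11.76, 11.30, 11.84 and 11.73 at ZT14, 11.91, 11.80 and 12.04 at ZT18, and 11.86, 11.98, 11.93 and 11.72 at ZT22. The 4 livers of ZT10 were low and close together, and all lay below the 7 livers of ZT18 and ZT22. The time means ran downward in the order ZT18, ZT22, ZT2, ZT14, ZT6 and ZT10, with overlap between all neighbours. The ZT18 mean, 11.92 ± 0.12 (SD, n = 3), was 1.61-fold the ZT10 mean, 11.23 ± 0.10 (SD, n = 4). The fitted peak was at ZT20.3 ± 0.773 h with an amplitude of 0.34 ± 0.07 and a 1.60-fold span (adjusted p = 0.00734). The difference between the peak times of Bhmt and Bhmt2 was not tested.

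Bhmt, Bhmt2 and Dmgdh, the gene of dimethylglycine dehydrogenase that acts on the product of Bhmt, are neighbours on chromosome 13 in the RefSeq annotation, with 0 other protein coding genes within their span. Sequences are shown for this locus because Bhmt and Bhmt2 had fitted peaks at different times while Bhmt2 and Dmgdh start next to each other in opposite directions. The Bhmt promoter window, chr13:93637709-93638008 on the minus strand of GRCm38.p6, holds 3 copies of AGGTCA, in capitals, a site that many nuclear receptors read. They begin 234, 72 and 47 bases upstream of the start. The next window, chr13:93674186-93674485 on the plus strand, covers the starts of Bhmt2 (minus strand) and Dmgdh (plus strand), with the 133 bases between the starts in capitals.
Bhmt: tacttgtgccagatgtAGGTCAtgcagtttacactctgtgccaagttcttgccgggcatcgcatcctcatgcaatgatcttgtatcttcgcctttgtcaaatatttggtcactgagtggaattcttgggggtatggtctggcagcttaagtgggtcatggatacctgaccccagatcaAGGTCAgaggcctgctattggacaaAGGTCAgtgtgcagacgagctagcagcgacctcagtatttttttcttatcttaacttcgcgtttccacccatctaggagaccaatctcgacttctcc
Bhmt2 and Dmgdh: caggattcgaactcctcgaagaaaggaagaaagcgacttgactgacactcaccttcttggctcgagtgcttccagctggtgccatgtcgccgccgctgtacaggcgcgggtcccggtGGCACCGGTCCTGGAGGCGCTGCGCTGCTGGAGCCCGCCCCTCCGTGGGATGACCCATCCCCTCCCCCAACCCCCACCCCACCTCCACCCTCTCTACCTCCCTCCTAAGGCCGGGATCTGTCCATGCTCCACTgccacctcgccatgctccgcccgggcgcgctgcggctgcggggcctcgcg
AGGTCA, searched on both strands, was present in 16.3% of the 32851 promoter windows and at least 3 times in 60 of them (0.183%). Of the 8 windows of these genes it was present in 4, those of Ahcy, Mthfd1, Bhmt and Gnmt, with 1 copy each in Ahcy, Mthfd1 and Gnmt. Dmgdh had time means of 13.32, 12.88, 13.00, 13.15, 13.67 and 13.56 from ZT2 to ZT22 and a fitted peak at ZT20.3 ± 0.881 h, 1.69-fold in span (adjusted p = 0.022). The fitted peak time of Bhmt2 was the same, but its lowest mean was at ZT10 (11.23) and that of Dmgdh at ZT6. Whether the adjoining starts bear on these courses was not tested.

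Ahcy was higher in the dark, without overlap between the phases. It encodes S-adenosylhomocysteine hydrolase, which clears the product of every SAM-dependent methylation. Its values were 17.44, 17.33, 17.50 and 17.42 at ZT2, 17.17, 17.03 and 17.43 at ZT6, 17.67, 17.52, 17.52 and 17.51 at ZT10, 17.78, 17.84, 17.78 and 17.71 at ZT14, 17.81, 17.96 and 17.76 at ZT18, and 18.09, 17.81, 17.77 and 17.80 at ZT22. Each of the 11 dark livers exceeded each of the 11 light livers. This was noticed in the values themselves and adds no test. The share of all features without overlap between dark and light livers was not counted. Between neighbours in the order of time means (ZT22, ZT18, ZT14, ZT10, ZT2, ZT6), ZT14 did not overlap ZT10 and ZT10 did not overlap ZT2, while the 3 dark times overlapped one another. The ZT22 mean, 17.87 ± 0.15 (SD, n = 4), was 1.58-fold the ZT6 mean, 17.21 ± 0.20 (SD, n = 3), and the fitted peak lay at ZT17.9 ± 0.689 h with an amplitude of 0.32 ± 0.06 and a 1.57-fold span (adjusted p = 0.00441).

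Mat1a, which encodes the liver form of the enzyme that makes SAM, and Gnmt, which uses up surplus SAM by methylating glycine, did not pass the test for a 24 h rhythm. Mat1a measured 17.95, 18.08, 17.89 and 18.31 at ZT14, against 17.39, 17.35, 17.46 and 17.73 at ZT2. These groups did not overlap, but the other 4 times filled the range between and beyond, from 17.52 to 18.37. Its highest time mean was 18.06 ± 0.19 at ZT14 and its lowest 17.48 ± 0.17 at ZT2 (SD, n = 4 each), and the fitted amplitude was 0.18 ± 0.08 (adjusted p = 0.336). Gnmt varied less, with time means between 18.09 ± 0.08 at ZT10 (SD, n = 4) and 18.52 ± 0.14 at ZT6 (SD, n = 3), an amplitude of 0.06 ± 0.08 and an adjusted p of 0.881. Gnmt's widest spread within a time was at ZT2, where ZT2d reached 18.83 and the other 3 livers lay between 18.06 and 18.22.

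Shmt1 and Shmt2 encode the cytosolic and the mitochondrial serine hydroxymethyltransferase, which load folate with carbon from serine. Shmt1 followed a 24 h rhythm with a late dark peak, and Shmt2 did not pass the test. Shmt1 measured 11.32, 10.94, 11.73 and 11.78 at ZT2, 11.82, 10.84 and 11.13 at ZT6, 11.15, 10.76, 10.56 and 11.18 at ZT10, 10.82, 11.21, 11.42 and 11.34 at ZT14, 12.22, 12.16 and 11.84 at ZT18, and 12.12, 11.62, 12.01 and 11.94 at ZT22. The 7 livers of ZT18 and ZT22 all lay above the 8 livers of ZT10 and ZT14, and ZT2 and ZT6 were spread across both ranges. Neighbouring times in the order ZT18, ZT22, ZT2, ZT6, ZT14 and ZT10 overlapped. The ZT18 mean, 12.07 ± 0.20 (SD, n = 3), was 2.24-fold the ZT10 mean, 10.91 ± 0.30 (SD, n = 4). The fitted peak of Shmt1 was at ZT20.8 ± 0.702 h, with an amplitude of 0.54 ± 0.10 and a 2.10-fold span (adjusted p = 0.0022). Shmt2 had time means between 13.06 ± 0.25 at ZT18 (SD, n = 3) and 13.39 ± 0.17 at ZT22 (SD, n = 4), which overlapped, and an amplitude of 0.04 ± 0.08 (adjusted p = 0.936). The difference between the courses of Shmt1 and Shmt2 was not tested.

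Mthfd1 encodes a cytosolic enzyme of several activities that interconverts folate-bound carbon units. It measured 11.78, 11.49, 12.13 and 12.52 at ZT2, 12.06, 11.54 and 12.13 at ZT6, 11.67, 11.77, 11.33 and 11.47 at ZT10, 11.35, 11.47, 11.59 and 11.53 at ZT14, 11.82, 11.81 and 11.72 at ZT18, and 12.13, 12.16, 11.77 and 11.93 at ZT22. All livers of ZT14 lay below all livers of ZT18 and ZT22, while ZT2 spanned more than a log2 unit. The fitted amplitude was 0.27 ± 0.08 with a peak at ZT0.695 ± 1.16 h and missed the threshold (adjusted p = 0.0611), and it passed when array ZT2b was left out (0.33, adjusted p = 0.0163).

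**Figure D2:**
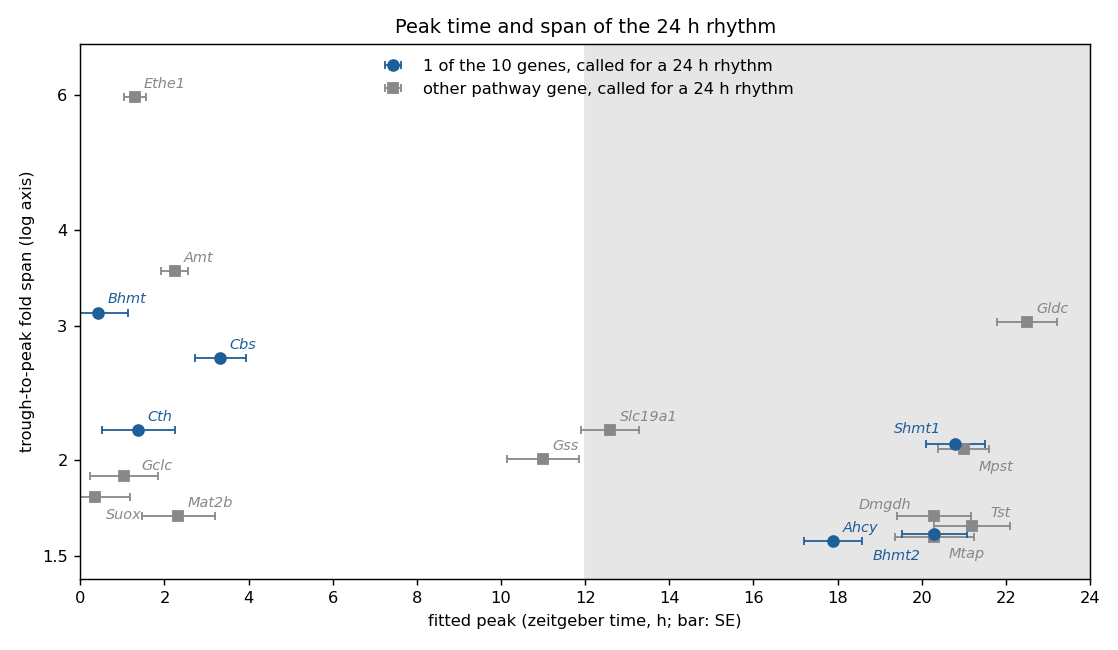
Fitted peak (horizontal axis, zeitgeber time in hours, bars for SE) against trough-to-peak fold span (vertical log axis) for the 6 of the 10 genes called for a 24 h rhythm (blue circles) and the 12 other pathway genes called (grey squares), with grey shading for darkness. Bhmt, Cbs and Cth stand in the early light with spans of 2.19-fold to 3.12-fold, and Ahcy, Bhmt2 and Shmt1 in the dark with 1.57-fold to 2.10-fold.

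A test that assumes no cosine shape, limma's F test among the 6 time means, called 6.14% of all features and 5 of the 10 genes: Cbs (adjusted p = 0.00137), Cth (0.00541), Shmt1 (0.011), Bhmt (0.019) and Ahcy (0.025). Bhmt2 gave an adjusted p of 0.0609. The median difference between the highest and the lowest time mean was 0.67 over the 10 genes, against 0.51 over all features and 0.55 over those above the median level. Between each gene's highest and lowest time, 9 of the 10 genes did not overlap, Shmt2 being the exception, as did not 38.5% of all features and 49.5% of those above the median level. Those times were picked by their values, so the counts carry no test. Without the 5 arrays of high Tff3, Ahcy and Bhmt missed the threshold (adjusted p = 0.179 and 0.116) with highest minus lowest means of 0.67 and 1.39, against 0.66 and 1.51 over all arrays. Ahcy missed it also without ZT6a, ZT6b or ZT18b (adjusted p = 0.0551, 0.0751 and 0.0518), Bhmt with the trend and robust prior (0.0711), and Bhmt2 passed under that prior, with arrayWeights, among features above the median level and without ZT14b (0.0305, 0.0371, 0.0235 and 0.0442).

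Between the phases, Ahcy, Bhmt2 and Shmt1 were higher in the dark and Cbs was lower, 4 of the 10 genes against 5.27% of all features called. The contrast set the mean of ZT14, ZT18 and ZT22 against the mean of ZT2, ZT6 and ZT10. Ahcy averaged 17.83 in the dark and 17.40 in the light, a difference of 0.43 ± 0.09 (SE; adjusted p = 0.00306). Bhmt2 averaged 11.82 in the dark and 11.44 in the light (0.38 ± 0.10, adjusted p = 0.027), and Shmt1 11.73 in the dark and 11.21 in the light (0.52 ± 0.14, adjusted p = 0.0236). Cbs averaged 14.69 in the dark and 15.35 in the light, a difference of -0.66 ± 0.15 (adjusted p = 0.011). For these 3 genes, unlike Ahcy, the dark and light livers overlapped. Bhmt and Cth, whose peaks lie close to lights on, differed by -0.12 ± 0.22 and -0.16 ± 0.15 (adjusted p = 0.837 and 0.626). The calls of Bhmt2 and Shmt1 were both lost without array ZT6b (adjusted p = 0.0652 and 0.0607), that of Bhmt2 also without ZT2a or ZT18c (0.0507 and 0.0673), and that of Shmt1 without ZT18a or ZT18b (0.0549 and 0.0525). Both calls were also lost without all 5 arrays of high Tff3, with a difference of 0.38 for Bhmt2 and 0.29 for Shmt1. In that fit ZT6a alone stood for ZT6, and its Shmt1 value, 11.82, was above those of ZT6b and ZT6c, 10.84 and 11.13. The call of Bhmt2 was lost with quantile normalization too (0.32, adjusted p = 0.0786).

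**Figure D3:**
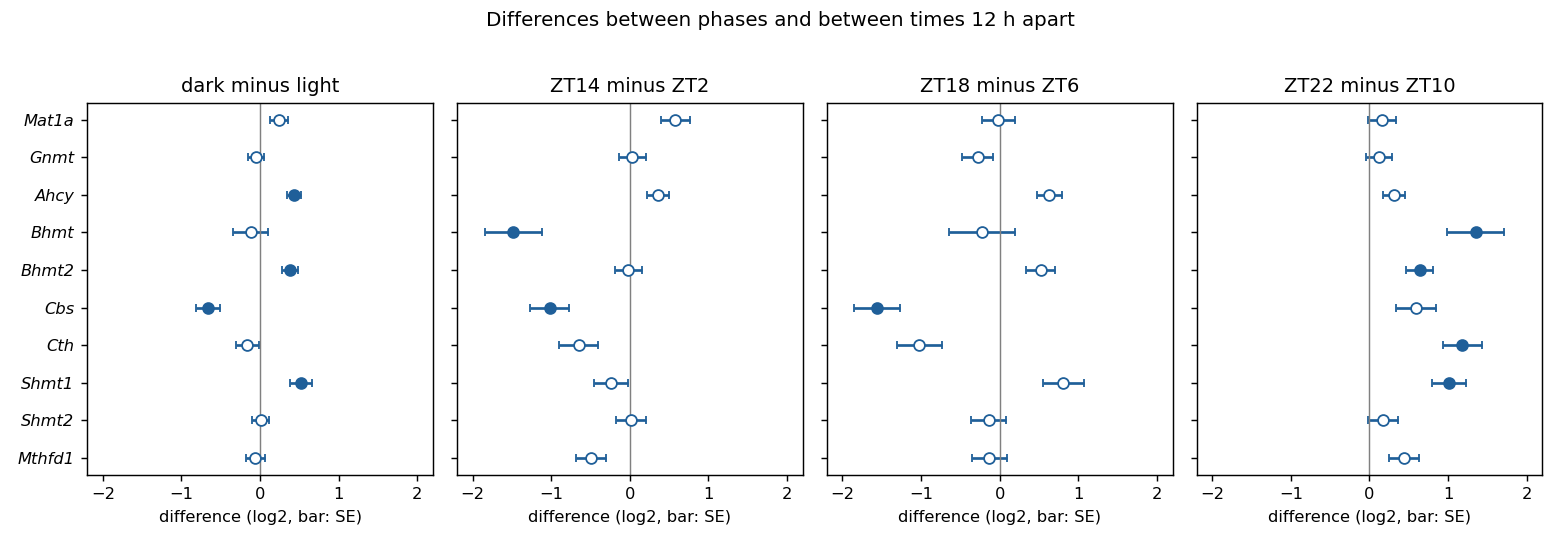
Differences in log2 level (horizontal axes, bars for SE) of the 10 genes for dark minus light, ZT14 minus ZT2, ZT18 minus ZT6 and ZT22 minus ZT10. Filled points passed limma's test at an adjusted p of 0.05: 4, 2, 1 and 4 of the 10 genes, with Cbs left of 0 in the first 3 panels and Bhmt left of 0 at ZT14 and right of 0 at ZT22.

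Times 12 h apart were compared in the same model. At ZT14, Bhmt and Cbs were lower than at ZT2, 2 of 10 genes where 4.27% of all features were called. Bhmt averaged 16.16 at ZT14 and 17.64 at ZT2 (-1.48 ± 0.36, adjusted p = 0.0164), and Cbs 14.62 at ZT14 and 15.64 at ZT2 (-1.02 ± 0.25, adjusted p = 0.0181). In both genes, picked by this contrast, the livers of ZT14 and ZT2 did not overlap, which adds no test. The share of all features without overlap between ZT14 and ZT2 was not counted. Mat1a averaged 18.06 at ZT14 and 17.48 at ZT2, a difference of 0.58 ± 0.18 that missed the threshold (adjusted p = 0.0736) but passed it with quantile normalization, among features above the median level, with the trend and robust prior, with arrayWeights and without ZT22a (0.0372, 0.0335, 0.0203, 0.039 and 0.0498). Bhmt missed it without ZT2c, ZT2d, ZT14b or ZT14d (adjusted p = 0.0629, 0.0514, 0.0576 and 0.0812), and Cbs without ZT2a, ZT2c, ZT14a or ZT14c (0.0633, 0.0512, 0.0524 and 0.0714). Without the 5 arrays of high Tff3, Bhmt gave -1.05 (adjusted p = 0.297) and Cbs -1.45 (adjusted p = 0.00283).

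At ZT18 only Cbs passed the test against ZT6, 1 of 10 genes where 1.13% of all features did. It averaged 14.16 at ZT18 and 15.72 at ZT6, a difference of -1.56 ± 0.29 (adjusted p = 0.00555). The livers of ZT18 and ZT6 did not overlap in Cbs, which was picked by this contrast, so this adds no test. The share of all features without overlap between ZT18 and ZT6 was not counted. Ahcy averaged 17.84 at ZT18 and 17.21 at ZT6 (0.63 ± 0.16, adjusted p = 0.0554), and Cth 15.54 at ZT18 and 16.56 at ZT6 (-1.02 ± 0.29, adjusted p = 0.0897). ZT6b and ZT6c are arrays of high Tff3, so without these 1 liver stood for ZT6, and Cbs then gave -1.36 (adjusted p = 0.0911).

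At ZT22, Bhmt, Bhmt2, Cth and Shmt1 were higher than at ZT10, 4 of 10 genes where 3.30% of all features were called. Cth averaged 16.57 at ZT22 and 15.39 at ZT10 (1.18 ± 0.25, adjusted p = 0.00682), and Shmt1 11.92 at ZT22 and 10.91 at ZT10 (1.01 ± 0.22, adjusted p = 0.0095). Bhmt averaged 17.67 at ZT22 and 16.32 at ZT10 (1.35 ± 0.36, adjusted p = 0.0357), and Bhmt2 11.87 at ZT22 and 11.23 at ZT10 (0.64 ± 0.17, adjusted p = 0.0302). In each of these 4 genes, picked by this contrast, the livers of ZT22 and ZT10 did not overlap, which adds no test. The share of all features without overlap between ZT22 and ZT10 was not counted. Cth and Shmt1 stayed past the threshold without any single array, but Bhmt and Bhmt2 each missed it without ZT10a, ZT10b, ZT22a, ZT22b or ZT22c (adjusted p up to 0.15 for Bhmt, 0.89 in size without ZT10a, and up to 0.0841 for Bhmt2). Bhmt2 missed it also without ZT10c (0.0786), and Bhmt without the 5 arrays of high Tff3 (1.39, adjusted p = 0.0534) and with the trend and robust prior (0.0856).

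In the 5 arrays of high Tff3, Mat1a, Cbs and Cth lay above every other array of their time, by 0.45, 0.61 and 0.69 on average within times. These are 3 of the 10 genes, where 953 of all 19505 named genes (4.89%) lay higher in this way and 678 (3.48%) lower. None of the 10 lay lower in all 5. These arrays were set apart by their Tff3 level, chosen with results of these data known, so the counts carry no test. All 6 genes kept their 24 h rhythm call without these arrays, with amplitudes of 0.29 for Ahcy, 0.73 for Bhmt, 0.34 for Bhmt2, 0.83 for Cbs, 0.57 for Cth and 0.50 for Shmt1, and the test among 6 times then called 3 of the 10 genes.

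The summed level of the hepatocyte markers lay between 21.70 and 21.94 on the log2 scale over all arrays. Alb, Apoa1, Ttr and Serpina1a (means of 19.80, 19.64, 19.61 and 19.45) weigh most in this sum. They lie close to the highest value of any array, 19.87, and whether the share of hepatocytes was constant was not tested. Of the markers, 1 of 6 hepatocyte genes, 2 of 4 periportal, 0 of 5 pericentral, 1 of 6 Kupffer cell, 1 of 5 endothelial and 0 of 5 stellate cell genes were called for a 24 h rhythm. Over all features the share called was 7.62%. The summed periportal markers lay between 19.32 and 19.39 at ZT10, where Bhmt2, Cth and Shmt1 were lowest, against 18.76 to 19.36 at the other times. These markers did not move together: Pck1 was lower at ZT22 than at ZT10 (-1.98 ± 0.38, adjusted p = 0.00231), Hal was higher at ZT22 (1.62 ± 0.22, adjusted p = 3.59e-05), and Cyp2f2 and Arg1 did not pass the test (-0.13 ± 0.17 and 0.27 ± 0.20). The summed pericentral markers lay between 18.60 and 18.97 in the 5 arrays of high Tff3, in which Mat1a, Cbs and Cth were high, and between 19.26 and 19.66 in the other 17 arrays. Sums were made on the linear scale, so Cyp2e1 and Cyp1a2 (means of 18.84 and 17.10) weigh most in this one. Oat, Slc1a2 and Lgr5 (15.37, 12.23 and 6.26) weigh little, and whether they fell in these arrays is not shown by the sum. The summed endothelial markers were lowest at ZT14, between 12.00 and 12.09 and highest at ZT22, between 12.77 and 13.07, and Bhmt had its lowest and highest means at the same times. The part of these cell types in the courses of the 10 genes was not tested.

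Around these genes, 44 other genes of the connected pathways were measured, and 12 of them were called for a 24 h rhythm, 6 with peaks in the light and 6 in the dark. The same test called 7.62% of all features and 13.6% of those above the median level, the shares to set beside each list below. The cysteine and sulfur genes held 6 of these among 11 measured. Ethe1, a mitochondrial persulfide dioxygenase, had the widest span, 5.97-fold, with a peak at ZT1.30 ± 0.261 h (adjusted p = 9.83e-11). Its time means were 13.63 ± 0.43, 12.62 ± 0.14, 11.53 ± 0.11, 11.05 ± 0.13, 11.83 ± 0.40 and 13.15 ± 0.32 from ZT2 to ZT22. Gclc and Suox, for the catalytic subunit of the enzyme that commits cysteine to glutathione and for sulfite oxidase, peaked at ZT1.03 and ZT0.354 with spans of 1.91-fold and 1.79-fold (adjusted p = 0.00407 and 0.00411). Mpst and Tst, a pair of sulfurtransferases, peaked in the dark at ZT21.0 and ZT21.2 (2.07-fold and 1.64-fold, adjusted p = 0.000355 and 0.0193), and Gss, glutathione synthetase, at ZT11.0 (2.01-fold, adjusted p = 0.00712).

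Of 6 serine and glycine genes, the pair called encodes subunits of the glycine cleavage system, which passes carbon from glycine to folate. Amt peaked at ZT2.24 ± 0.317 h with a 3.53-fold span (adjusted p = 5.9e-09). Gldc peaked at ZT22.5 ± 0.714 h with 3.03-fold (adjusted p = 0.00121), and its mean was 12.40 ± 0.20 at ZT22 against 10.34 ± 0.35 at ZT10 (SD, n = 4 each). All 4 ZT10 values of Gldc were below every other value of the gene, as they were not for Shmt1, whose lowest mean was also at ZT10. Among 12 folate enzymes and carriers only Slc19a1, a carrier of reduced folate, was called, with a peak at ZT12.6 ± 0.69 h and a 2.19-fold span (adjusted p = 0.000654), and its highest mean, 8.23 ± 0.28, was at ZT10.

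Among 7 methionine cycle partners, Mat2b and Mtap were called. Mat2b, a regulatory subunit of a form of the SAM-making enzyme other than that of Mat1a, peaked at ZT2.33 ± 0.86 h (1.69-fold, adjusted p = 0.0107). Mtap, which salvages methionine from polyamine synthesis, peaked at ZT20.3 ± 0.943 h (1.59-fold, adjusted p = 0.0345). Of 4 choline and betaine genes Dmgdh was called. Of 4 other methyltransferases that use SAM none was called in the 24 h test (1 at an unadjusted p under 0.05). Gamt, which makes creatine, came closest, with a peak at ZT16.7 and a 1.65-fold span (adjusted p = 0.0624), and it passed the contrast of dark and light (0.48 ± 0.12, adjusted p = 0.0153). The median span of the 44 genes was 1.36-fold, against 1.24 over all features. Leaving out single arrays ended the calls of Mtap in 8 of 22 cases, of Dmgdh in 3 and of Tst in 1, and of the other 9 in none. Leaving out all of a time ended those of Mat2b (adjusted p = 0.279 without ZT14), Gldc (0.136 without ZT10) and Gss (0.119 without ZT22). It also ended those of Gclc (0.102 without ZT2), Suox (0.0543 without ZT10), Mtap, Dmgdh and Tst. Slc19a1, Amt, Mpst and Ethe1 stayed called in every alternative. Without the 5 arrays of high Tff3, Dmgdh, Gss and Tst were no longer called (adjusted p = 0.0671, 0.0543 and 0.105), with amplitudes of 0.37, 0.45 and 0.28, against 0.38, 0.50 and 0.36 over all arrays.

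**Figure D4:**
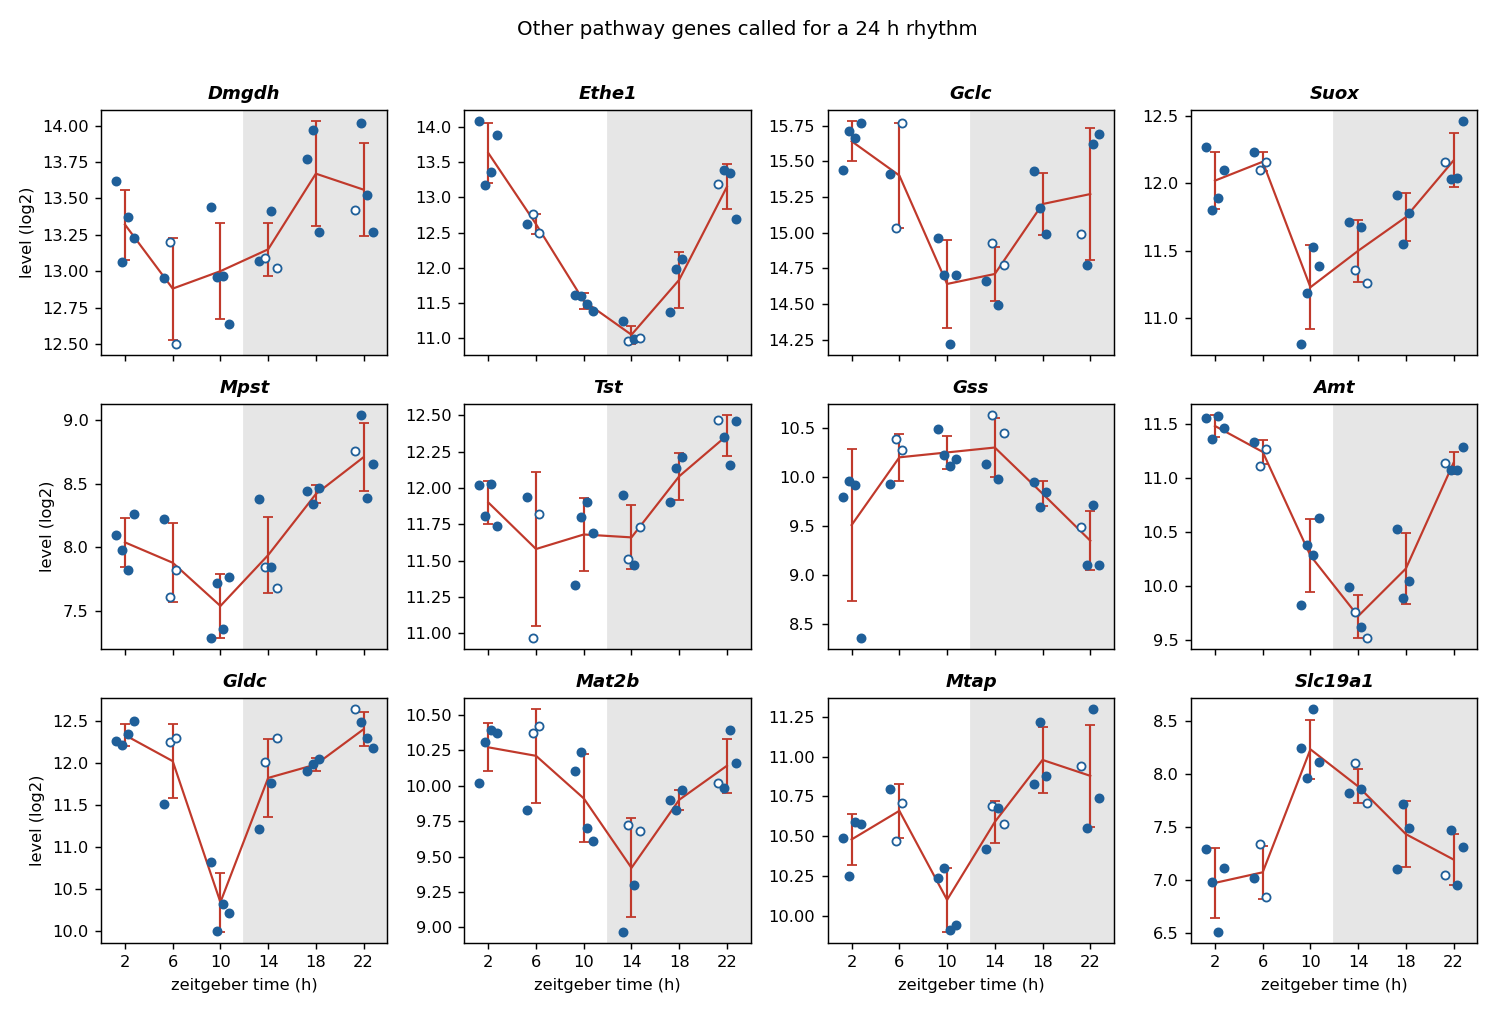
Log2 level (vertical axes, 1 scale per gene) against zeitgeber time in hours for the 12 other pathway genes called for a 24 h rhythm, with 1 point per liver, red lines and bars for mean ± SD, open points for the 5 arrays of high Tff3 and grey for darkness. Ethe1 and Amt had their lowest means at ZT14, 11.05 and 9.72, Gldc at ZT10, 10.34, and Slc19a1 its highest at ZT10, 8.23.

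The genes whose levels ran most like those of the 6 rhythmic genes were found by Pearson's r over the 22 arrays among 18479 named genes, as a description. All of these values share the arrays and their times. Cth ran most like Hal (r = 0.891), the first enzyme of histidine breakdown, Qdpr (0.876), which recycles the cofactor of phenylalanine hydroxylase, and Kynu (0.83), an enzyme of tryptophan breakdown. With time means removed, these were 0.713, 0.67 and 0.605. Cbs ran most like Sqstm1 (0.87), a receptor of selective autophagy, Arhgap18 (0.848) and Gstm4 (0.841), a glutathione transferase. Bhmt ran most like S100a10 (0.849), Spon2 (0.798) and Elovl3 (0.795), which lengthens fatty acids. Removing time means gave 0.762, 0.57 and 0.588 for the genes like Cbs, and 0.667, 0.393 and 0.492 for those like Bhmt.

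Among the dark-peaking genes, Ahcy ran most like Rhobtb1 (0.848), Fkbp14 (0.843) and Cry1 (0.837), a repressor of the core clock. With time means removed, these were 0.342, 0.519 and 0.293. Bhmt2 ran most like Bmp1 (0.853), S1pr1 (0.835) and Agpat2 (0.83), an acyltransferase of lipid synthesis. Shmt1 ran most like Tpi1 (0.824), the triosephosphate isomerase of glycolysis, Ppp1r1b (0.824) and Anapc11 (0.821). Removing time means gave 0.551, 0.388 and 0.428 for the genes like Bhmt2, and 0.656, 0.57 and 0.685 for those like Shmt1. Among the 10 genes themselves, Bhmt2 and Shmt1 followed Cbs and Cth as the pair next in correlation (r = 0.715, and 0.294 with time means removed). Mat1a and Cth had r = 0.212 over all arrays but 0.77 with time means removed, and both lay above the other arrays of their time in the 5 arrays of high Tff3.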

How the data were processed

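Liver RNA of 22 male adiponectin-knockout mice was measured. Per the labels' protocols, total RNA was isolated with TRIzol, and 100 ng went onto each Clariom S array with the WT Plus kit. The authors deposited log2 values with 2 decimals, 1 per feature and array. That the base is 2 is an assumption from their range of 1.68 to 19.87, and every fold change depends on it. How they corrected background, summarized and normalized, and with which software and build, is not given in the sources used here. No detection calls came with the values. Arrays have no read depth, so precision is limited by how many there are.

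Groups follow the labelled time. The labels state 3 to 4 mice per time, each array was taken as 1 mouse, and the p-values reflect only how these samples spread. Gene names came from the platform annotation (19572 features with 1 symbol, 2634 with none, 0 with several), and for genes with more than 1 feature the brightest was used. Arrays correlated with each other at 0.976 to 0.994, and 0 pairs had identical values.

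Models were fitted to all 22206 features with limma 3.58.1 (R 4.3.3, package data.table, version 1.17.8; lmFit, eBayes, no filter), and p-values were adjusted by Benjamini-Hochberg over all features at 0.05. The 24 h rhythm was tested as cosine and sine terms of 24 h together (F test), and its fold span is the ratio of the fitted peak to the fitted trough. Contrasts (dark minus light, ZT14 minus ZT2, ZT18 minus ZT6, ZT22 minus ZT10) came from a model of 6 time means on all arrays, which lets 1 estimate of spread serve all times. These contrasts and the rhythm test use the same arrays. The code was tested on simulated data.

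The members, pathway lists, markers, tests and the level of 8 that sets the Tff3-high arrays apart were chosen with earlier results of these data known. Named genes were all members, the pathway genes called in the 24 h test (or that of lowest p where a list had none), the 3 genes most like each called member by Pearson's r, Adipoq, Tff3 and the markers. Some genes of the pathway lists are not reported here. The replicate letters did not pair the arrays: arrays of different times with the same letter had a median correlation of 0.00278 between their deviations from the time means (51 pairs, -0.236 to 0.226), against 0.00166 for other letters (150 pairs). Alternatives were quantile normalization, centring arrays on their medians, features above the median level, a trend and robust prior, arrayWeights, the letter as a block, 24 h terms beside 12 h terms, each time left out, the 2 times alone, the Tff3-high arrays left out, and each array left out.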

Additional observations from a re-analysis of the deposited data

Results flagged for a closer look

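The 4 time groups of 4 livers were searched for single values that stood apart from the other 3, in each of the 10 genes, by Dixon's test, which chance alone sets off in about 1 in 20 groups. Of the 40 groups, 4 held such a value. Mat1a measured 18.37 in ZT22a, and the nearest of the other ZT22 livers was 17.83. Ahcy measured 18.09 in ZT22a, with 17.81 as the nearest. Shmt2 measured 13.13 in ZT22a, below the other 3, of which the nearest was 13.46. Ahcy measured 17.67 in ZT10a, with 17.52 as the nearest. So 3 of the 4 values came from array ZT22a, which is also 1 of the 5 arrays of high Tff3. No call of a 24 h rhythm among the 10 genes changed when ZT22a or ZT10a was left out.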

How the results depend on the processing

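The 24 h rhythm called 6 of the 10 genes in the analysis given above and 3 when all of ZT10 was left out, which lost Bhmt2, Cth and Shmt1 (adjusted p = 0.165, 0.0536 and 0.0531). Leaving out ZT6 lost Ahcy (adjusted p = 0.0706). Each of these fits has fewer arrays. Without the 5 arrays of high Tff3 the test among 6 times called 3 genes, dark minus light 2, ZT14 minus ZT2 1, ZT18 minus ZT6 0 and ZT22 minus ZT10 3, with fewer arrays again. Fits of only the arrays of the 2 times called 1 gene for ZT14 minus ZT2 and 2 for ZT22 minus ZT10, and quantile normalization also left 2 for ZT22 minus ZT10 and ended the call of Bhmt2 for dark minus light. For ZT18 minus ZT6, features above the median level and the trend and robust prior each called 2 genes, adding Ahcy; the cause was not tested. Leaving out single arrays gave 6 to 7 genes for the 24 h rhythm, 4 to 6 among the 6 times, 2 to 4 for dark minus light, 0 to 3 for ZT14 minus ZT2 (0 without ZT2c), 1 to 2 for ZT18 minus ZT6 and 2 to 4 for ZT22 minus ZT10. With the replicate block, the letters of the labels, the counts were 6, 4, 4, 2, 1 and 4, and Ahcy was the gene lost among the 6 times. Mthfd1 was called for a 24 h rhythm among features above the median level (adjusted p = 0.0293) and with the trend and robust prior (0.0406). Of 360 alternatives to the 24 h rhythm of single genes, whose amplitude has no sign, 353 kept their side of the threshold, 4 fell short of it and 3 newly passed it. Of 326 alternatives to 11 called differences of single genes, 289 kept direction and side, 37 fell short and 0 turned direction. Quantile normalization changed the share of higher calls over all features for ZT18 minus ZT6 to 54.9%, against 65.5%, and no scaling moved the median of all features by more than 0.016. The other pathway genes called for a 24 h rhythm numbered 8 to 18 over all alternatives. An alternative with another feature of the same gene gave no value, since each gene has 1 feature. The lowest value of the 10 genes, 10.56, lay above the lower quartiles of the arrays, 3.67 to 3.91, whereas Aldh1l2 and Phgdh among the other pathway genes, each with a mean of 3.61, could not be told from background.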

Other observations

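Among the 44 other pathway genes, ZT14 minus ZT2 called 7, with 3 higher and 4 lower at ZT14, where 4.27% of all features were called. Ethe1 (-2.58 ± 0.21), Amt (-1.76 ± 0.18), Gclc (-0.93 ± 0.21) and Mat2b (-0.86 ± 0.19) were lower at ZT14, and all 4 stayed past the threshold without the 5 arrays of high Tff3. Slc19a1 (0.90 ± 0.20), Nnmt, which methylates nicotinamide with SAM (2.45 ± 0.70), and Mthfd1l, a mitochondrial folate enzyme (1.76 ± 0.48), were higher at ZT14; Nnmt and Mthfd1l are named after their values were seen. Nnmt measured 13.56, 14.46, 12.05 and 15.05 at ZT14, and 12.04, 11.03, 11.13 and 11.14 at ZT2. Mthfd1l measured 5.98, 8.46, 6.17 and 8.24 at ZT14, and 4.98, 5.10, 5.63 and 6.11 at ZT2. In both genes the highest values at ZT14 were those of ZT14b and ZT14d, which have high Tff3. Without the 5 arrays of high Tff3 the differences were 1.47 for Nnmt (limma, adjusted p = 0.107), 0.62 for Mthfd1l (0.421) and 0.87 for Slc19a1 (0.0801).

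ZT22 minus ZT10 called 7 of the 44 as well, with 6 higher and 1 lower at ZT22, where 3.30% of all features were called. All 7 stayed past the threshold without these 5 arrays. Gldc (2.06 ± 0.22), Ethe1 (1.63 ± 0.21), Mpst (1.18 ± 0.19), Suox (0.94 ± 0.18), Amt (0.86 ± 0.18) and Mtap (0.79 ± 0.17) were higher at ZT22, and Slc19a1 was lower (-1.04 ± 0.20). Dark minus light called 6 of the 44, where 5.27% of all features were called. Mtap, Gamt, Gldc and Mpst were higher and Amt and Ethe1 lower in the dark, and without the 5 arrays Gldc and Amt stayed past the threshold. The other 4 then missed it, with differences of -0.56 for Ethe1, 0.48 for Mpst, 0.38 for Gamt and 0.34 for Mtap, against -0.58, 0.54, 0.48 and 0.41 over all arrays. ZT18 minus ZT6 called Amt alone, where 1.13% of all features were called. Amt was lower at ZT18 (-1.08 ± 0.21). Leaving out the 5 arrays leaves 1 liver at ZT6, and the difference was then -1.17, which does not show that the call holds.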
